A study of Mus musculus with 60 samples.

Results

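Squamous cell carcinomas (SCCs) of mouse skin carried a tumor_class label of 1 or 2, and the 2 classes were compared within this histology alone. The comparison took in 38 of the 60 carcinoma arrays of the series, from 35 of its 55 mice, chosen by 2 labels only: SCC as histology, and the class. Class 1 held 5 SCC arrays from 4 mice, and class 2 held 33 SCC arrays from 32 mice. A single mouse bore an SCC of each class and is class 1 mouse 3 here. All animals were FVBBX mice, made by crossing Mus spretus (SPRET/Ei) with FVB/N and backcrossing to FVB/N, so that each mouse had its own mixture of alleles. Each mouse was also labelled with an origin (F1BSF1, F1BSF2, F1BSF3 or F1BSF4), a coat colour (agouti or white), a sex and a p53 state (mutant or not). Every tumour of either class had been raised on back skin by the carcinogen DMBA followed by the promoting agent TPA. The age of the mice at collection is not given in the sources used here. Spindle carcinomas, the fibroblast-like form, came from the same cross and treatment and served for comparison, with 9 mice in class 1 and 5 in class 2, 1 mouse having a tumour of each.

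RNA of each whole tumour was hybridised to an Affymetrix expression array, and values are on a log2 scale after RMA normalisation, so that a difference of 1 is a doubling. Arrays of the same mouse and class were averaged, and mice are the replicates. Overlap between groups is judged on these averages. A gene was called when its adjusted p in the limma fit across 13008 genes was under 0.05. The sources used here do not say how the class was assigned. If it was drawn from these expression values, the p-values below describe genes that were used to draw it and are no independent evidence.

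Keratinocytes of squamous epithelium are held together by cadherins, tight junctions and desmosomes, and their identity is kept by transcription factors such as p63, GRHL2 and KLF5. In epithelial to mesenchymal transition (EMT), factors of the SNAIL, ZEB and TWIST families repress E-cadherin and other junction genes, and cells take up vimentin, fibronectin and a fibroblast-like shape. In this skin model a squamous carcinoma can give way to a spindle carcinoma by such a change.

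Some arrays of class 1 stood apart or went against their labels. The arrays of class 1 mice 2 and 3 had a Pearson correlation of 0.9858 across genes, the highest of 703 pairs of SCC arrays. Only 112 genes differed by more than 1 log2 unit between them, against 1144 between the 2 arrays of class 1 mouse 1. The titles of those 2 arrays share a carcinoma number, so they may be 2 samples of 1 carcinoma. Class 1 mouse 4 was labelled female but had Xist, which silences an X chromosome in females, at 4.76 and a Y-linked mean of 6.24, both within the range of arrays labelled male. Sex markers also went against the label, or showed both or neither pattern, in 6 mice of class 2. Counts are therefore also given with mice 2 and 3 counted as 1, and without the arrays that go against the sex label. RNA quality, measured as the 3′ minus 5′ log2 difference of control probe sets, averaged 0.35 in class 1 and 0.15 in class 2 for Gapdh (exact permutation test, two-sided, p = 0.234), and 1.08 and 0.83 for Actb (exact permutation test, p = 0.252). For Gapdh, class 1 mice 1 to 4 were at 0.42, 0.07, 0.48 and 0.41. Class 2 had a median of 0.05 and ran from −0.07 to 1.84. For Actb the values were 1.68, 0.66, 1.00 and 1.00 against a class 2 median of 0.75. With 4 class 1 mice, these p-values do not show that RNA quality was alike in both classes.

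The other labels were set against the class to ask what the class 1 mice shared. Of these mice, 2 bore well, 1 moderately and 1 poorly differentiated tumours. A poor grade was given for 1 of 4 class 1 mice and 8 of 31 class 2 mice (the mouse with both classes counted in class 1). None of the 4 class 1 mice had the mutant p53 label, against 8 of 31. Lymph nodes were positive in 3 of 4 class 1 mice and 7 of 20 class 2 mice with this label. The origin was F1BSF4 in 3 of 4 class 1 mice, with the other F1BSF1, and in 13 of 31 class 2 mice. The sex label was female in 3 of 4 and 20 of 31, and the coat agouti in 3 of 4 and 16 of 31. Papillomas at 20 weeks numbered 7, 0, 0 and 3 in class 1 mice 1 to 4 (mean 2.50) and 0 to 35 in class 2 (mean 7.48). None of 7 labels passed the threshold: two-sided Fisher's exact tests and, for papillomas, an exact permutation test gave adjusted p from 0.728 to 1.0. With 4 class 1 mice, these p-values do not show that the labels were alike in both classes.

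Between the classes, 3648 genes were called, or 28.0% of those tested. In class 1, 2206 genes (17.0%) were higher and 1442 (11.1%) lower, and the median difference over all genes was 0.04. Counts of list members below are read against these shares of all genes. For Krt13, a keratin typical of moist stratified linings such as the oesophagus, levels were 3.41, 3.58, 3.56 and 3.65 in the 4 class 1 mice, while class 2 ran from 5.08 through a median of 10.43 to 13.08. The groups did not overlap (log2 difference −6.16, SE 1.33, adjusted p = 0.000494). All 4 class 1 values lay below the array medians (4.431 to 4.558), where the level itself is uncertain, so no fold is given for Krt13 or for other genes as low as this. Values of class 1 lay below every class 2 mouse in 305 genes (2.34%) and above every one in 335 (2.58%). With mice 2 and 3 counted as 1, 2820 genes were called, and 1530 when arrays against the sex label were left out as well.

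**Figure D1:**
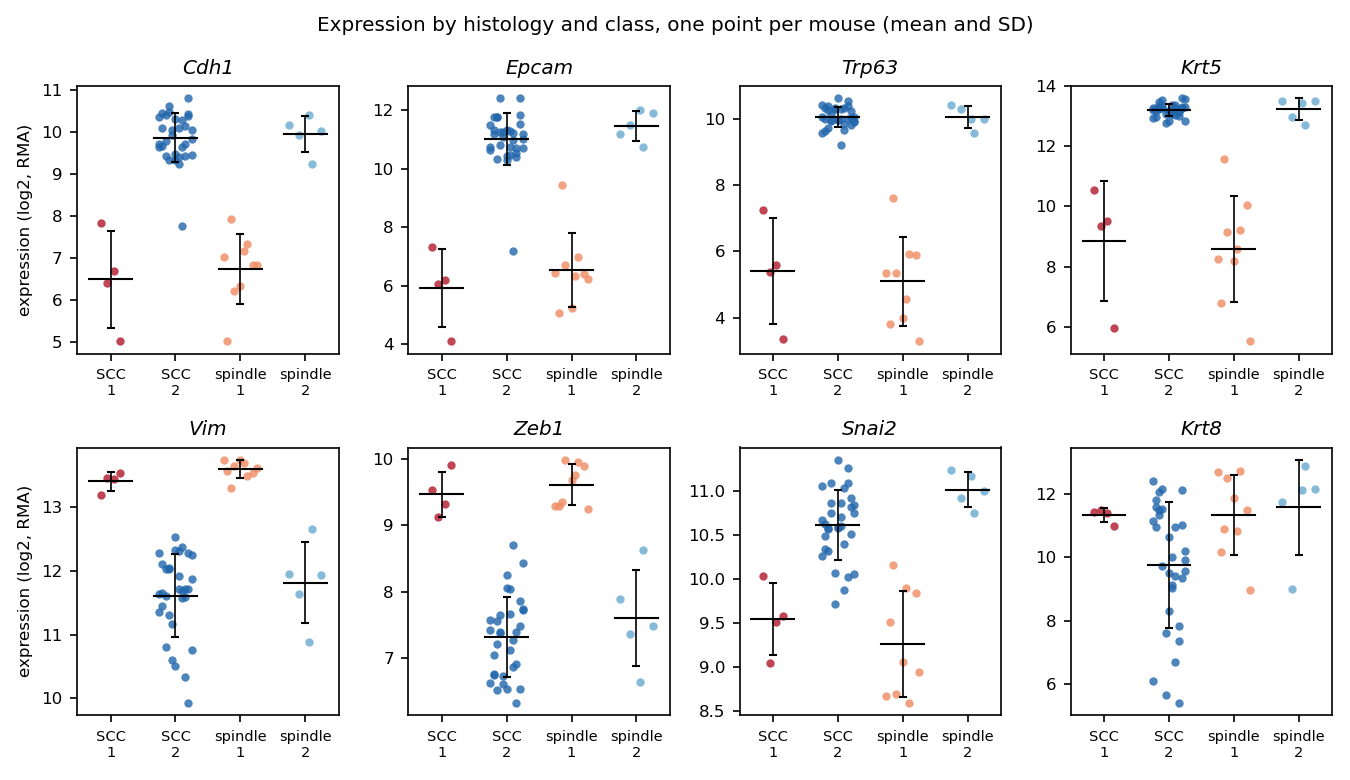
Expression (log2, RMA) of 8 genes in SCCs and spindle carcinomas of each class, 1 point per mouse, with the mean (line) and SD (bar) of each group. Class 1 mice of both histologies sit low for Cdh1, Epcam, Trp63, Krt5 and Snai2 and high for Vim and Zeb1, while Krt8 overlaps between all 4 groups, and 1 class 2 SCC has Cdh1 at 7.75 and Epcam at 7.20.

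Genes of cell adhesion fell together. Of 8 cadherin, catenin, nectin and Epcam genes tested, 5 fell and none rose. Of 16 tight junction genes 14 fell, and of 14 desmosome genes 11. The 3 list medians were −1.41, −1.90 and −3.27. With mice 2 and 3 counted as 1 and no arrays against the sex label, 5, 6 and 10 genes of these lists fell, in the same order. Cdh1, which encodes E-cadherin, was at 7.84, 6.40, 6.69 and 5.02 in class 1 mice 1 to 4 and between 7.75 and 10.81 (median 9.89) in class 2. Class 1 mouse 1 lay just above the lowest class 2 mouse, so the groups overlapped by that mouse alone, and the difference was −3.38 (SE 0.34, adjusted p = 5.36e-10). Epcam, an epithelial adhesion molecule, was at 7.33, 6.05, 6.19 and 4.09 against 7.20 to 12.42 (median 11.15), a 34.2-fold fall (−5.10, SE 0.48, adjusted p = 1.51e-10). Here too mouse 1 was the only overlap. This fold rests on the brighter of 2 Epcam probe sets, and the other differed by −0.36. In these whole tumours, fewer keratinocytes and less RNA per keratinocyte cannot be told apart.

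The class 2 SCC that overlapped was the same for both genes, a poorly differentiated tumour of class 2 mouse 24. Its Zeb1, at 8.70, was the highest of class 2, but it kept Krt5 at 13.26 and Trp63 at 9.67, inside the class 2 range and above every class 1 mouse. Low Cdh1 and Epcam thus occurred in class 2 without low Krt5 and Trp63.

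In the tight junction, Cldn4, Cldn7 and Cldn8, which encode claudins that seal the space between cells, were among those that fell. Cldn4 was at 5.53, 4.85, 5.01 and 4.66 in class 1 and from 5.93 to 11.37 (median 9.92) in class 2, with no overlap (−4.76, SE 0.56). The 2 arrays of mouse 1 were at 4.21 and 6.84 for Cldn4, the second inside the class 2 range. Cldn7 and Cldn8 fell by 4.00 and 3.66 on the log2 scale, and both overlapped with the lowest class 2 mice. Class 1 levels of both were below the array medians, and Cldn8 lost its call with class 1 mice 1 and 4 alone (adjusted p = 0.0906). Cldn1 and Cldn12 did not pass the threshold. Of the desmosome, Dsc2 (desmocollin) fell by 5.81 and Dsg2 (desmoglein) by 3.70. The differences of 6 Dsg2 probe sets reached from −3.70 to −0.20. Class 1 means of Dsc2 (4.13) and Dsg2 (3.93) were below the array medians, so these sizes are uncertain. Dsp, which encodes desmoplakin and ties desmosomes to keratin filaments, was at 10.44, 8.75, 9.16 and 3.06 against 11.57 to 12.34 in class 2. No class 1 mouse reached the class 2 range, and mouse 4 lay far below the other 3.

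The bases before the transcription start of 3 of these adhesion genes are shown because the E-box CACCTG, read as CAGGTG from the opposite strand, is a motif that SNAIL and ZEB proteins bind. They are the 250 bases upstream of a RefSeq start in GRCm38.p6, with E-boxes in capitals. The reference is of another strain than the mice, whose own alleles were not read.
Epcam: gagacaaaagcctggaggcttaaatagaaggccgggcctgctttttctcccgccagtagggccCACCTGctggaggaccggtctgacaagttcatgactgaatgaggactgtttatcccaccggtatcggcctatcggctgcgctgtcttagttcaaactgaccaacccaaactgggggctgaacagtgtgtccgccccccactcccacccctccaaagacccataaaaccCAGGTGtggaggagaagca
Cldn4: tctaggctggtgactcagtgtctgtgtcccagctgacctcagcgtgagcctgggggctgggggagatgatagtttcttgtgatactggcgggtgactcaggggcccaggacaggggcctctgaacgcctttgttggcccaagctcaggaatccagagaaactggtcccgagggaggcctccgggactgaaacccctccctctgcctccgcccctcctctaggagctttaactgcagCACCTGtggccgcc
Cldn7: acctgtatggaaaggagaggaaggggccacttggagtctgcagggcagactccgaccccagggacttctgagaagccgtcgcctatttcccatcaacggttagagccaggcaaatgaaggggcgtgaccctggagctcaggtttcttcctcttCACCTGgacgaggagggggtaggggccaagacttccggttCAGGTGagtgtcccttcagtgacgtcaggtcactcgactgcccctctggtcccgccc

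The Epcam window is chr17:87635729-87635978 (+ strand), that of Cldn4 chr5:134946935-134947184 (− strand) and that of Cldn7 chr11:69965171-69965420 (+ strand, 1 of 2 RefSeq starts). E-boxes begin 187 and 19 bases before the start of Epcam, 14 bases before that of Cldn4, and 97 and 57 bases before that of Cldn7. Of the 14 tight junction genes that fell, 10 had a window in the table, and 6 of these held the E-box, as did 1 of 3 in the cadherin and Epcam list, 0 of 2 desmosome genes and 3 of 7 epithelial regulators. Among all genes with a window, 19.4% had it (17.2% of windows). A match in these letters is a description and not a binding site.

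Transcription factors and splicing factors of epithelial identity fell in 17 of 19 tested, with a list median of −3.02. Of them, 9 lay below every class 2 mouse. With mice 2 and 3 counted as 1 and no arrays against the sex label, 13 of 19 fell. Trp63, which encodes p63, the master regulator of stratified epithelium, was at 7.26, 5.39, 5.60 and 3.36 in class 1 and from 9.20 to 10.63 in class 2, without overlap (−4.66, SE 0.29, adjusted p = 4.13e-15). Grhl2, a regulator of junction genes, was at 5.84, 4.69, 4.97 and 4.63 against 7.32 to 8.96, also without overlap (−3.09, SE 0.21), while the smallest difference among its 4 probe sets was −0.27. Esrp1, a splicing factor of epithelial isoforms, fell by 4.28 and overlapped by mouse 1 alone. Ehf, an epithelial ETS factor, fell by 4.86 on the probe set used, to levels below the array medians, while 1 of its 4 probe sets differed by 0.04. Sox2 and Sox9 were the 2 that did not pass.

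Among keratins, the basal and stress-induced forms fell and the suprabasal pair Krt1 and Krt10 was not called. Krt5, a keratin of basal keratinocytes, was at 10.53, 9.35, 9.53 and 5.94 in class 1 and between 12.78 and 13.59 in class 2, with no overlap (−4.37, SE 0.32, adjusted p = 4.01e-13). Its partner Krt14 was at 12.24, 10.67, 11.00 and 6.22 against 13.19 to 14.03. For both genes mouse 4 was the lowest and mouse 1 the highest of class 1. Of the 14 basal keratinocyte genes tested, 11 fell, among them Col17a1 (−4.73) and Lama3 (−4.92), which anchor the cells to the basement membrane. For Lama3 the 2 probe sets disagreed, the other at 0.06. Plec, the cytoskeletal linker plectin, rose by 0.70 (adjusted p = 0.00793).

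Of 12 stress keratins and partners, 11 fell (median −3.95). Sprr1a, a cornified envelope precursor, was at 10.09, 8.82, 9.13 and 4.66 against 11.67 to 13.97 and did not overlap. Of 25 cornified envelope genes, 11 fell and 14 did not pass. Krt10, a keratin of differentiating suprabasal cells, was at 10.68, 10.05, 10.16 and 5.88 in class 1 and from 5.77 to 12.44 (median 9.29) in class 2 (difference 0.28, SE 1.10, adjusted p = 0.885). Its partner Krt1 was at 10.54, 9.56, 9.88 and 3.17 against 3.05 to 11.93. Mice 1, 2 and 3 thus lay above the class 2 median for both genes, and mouse 4 near the bottom of the range.

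Simple epithelial keratins divided. Krt7, Krt18, Krt19 and Krt23, keratins of simple epithelia, fell by 4.51, 2.10, 4.04 and 3.21. Krt8, the usual partner of Krt18, was at 11.43, 11.47, 11.40 and 10.98 in class 1 and from 5.42 to 12.39 in class 2, a difference of 1.57 that did not pass (SE 0.96, adjusted p = 0.238). Class 1 levels of Krt19 were below the array medians, as were the class 1 means of Krt7 (4.37) and Krt23 (4.40). The sizes of these 3 falls are uncertain. Krt19 lost its call in 9 alternatives, with a limma adjusted p of 0.0665 when mice 2 and 3 were counted as 1. With arrays against the sex label also left out, none of the 6 simple keratins was called by limma (adjusted p = 0.0833 for Krt7, 0.0668 for Krt18 and 0.0561 for Krt23).

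**Figure D2:**
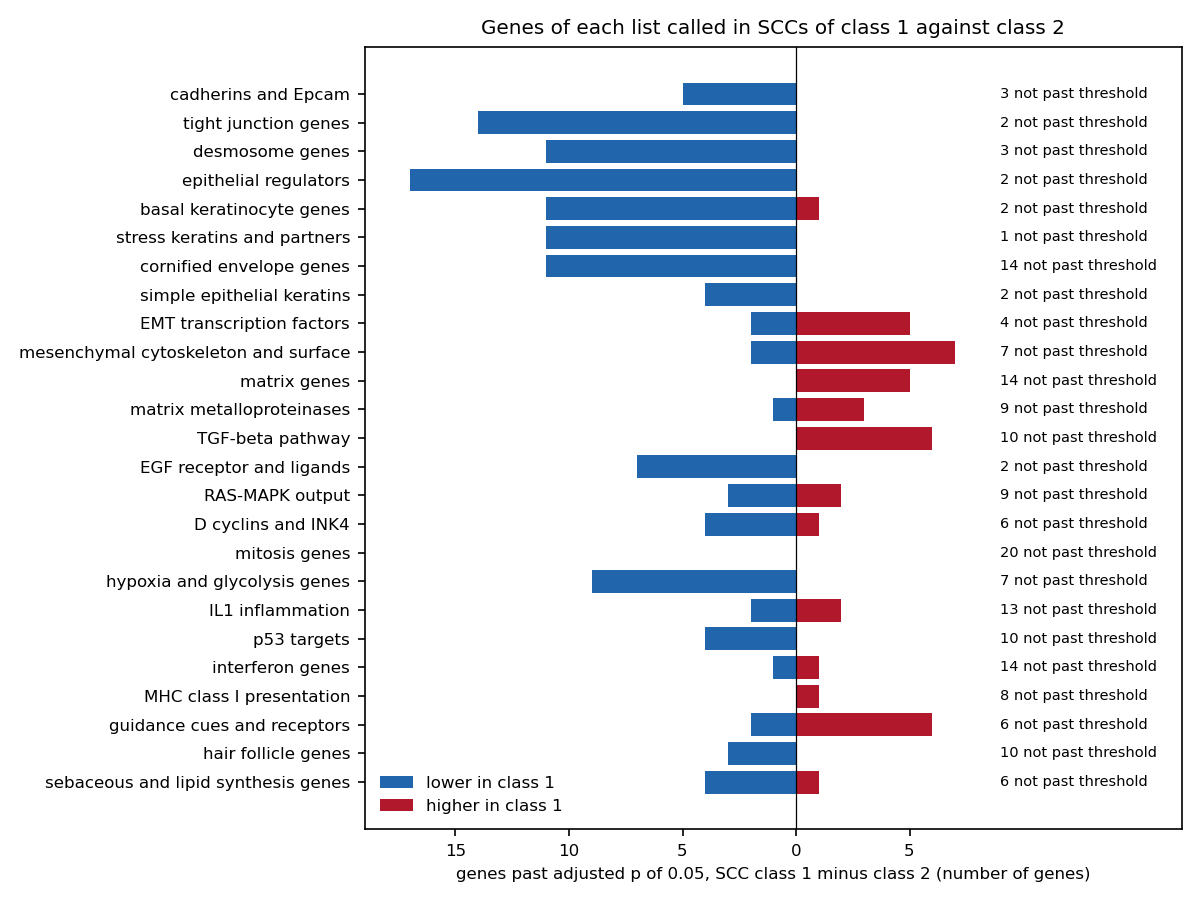
Number of genes of each of 25 lists that were lower (blue, to the left) or higher (red, to the right) in class 1 SCCs at an adjusted p under 0.05, with the number not past the threshold printed at the right. Junction, regulator, basal and stress keratin lists extend to the left alone or nearly so, with 17 of 19 epithelial regulators lower, and no mitosis gene is called.

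EMT transcription factors did not move as 1 block: of 11 tested, 5 rose and 2 fell. Zeb1, a repressor of E-cadherin, was at 9.53, 9.12, 9.32 and 9.91 in class 1 and from 6.33 to 8.70 in class 2, with no overlap (2.15, SE 0.30, adjusted p = 8.49e-07). The differences of 4 Zeb1 probe sets reached from 0.18 to 2.15. Snai1, which also represses E-cadherin, was at 6.38, 6.61, 7.00 and 7.69 against 3.66 to 6.22, also apart (1.87, SE 0.31). The 2 arrays of mouse 1 were at 7.09 and 5.68 for Snai1, the second inside the class 2 range. Zeb2, Prrx1 and Tcf4 rose by 1.66, 1.52 and 1.06. Snai2, also called Slug, moved the other way: its class 1 values of 10.03, 9.04, 9.51 and 9.58 were below the class 2 range of 9.71 to 11.35 in 3 of 4 mice (−1.07, SE 0.21, adjusted p = 0.000119). Snai3 fell by 1.70. Twist1 differed by 0.79 and missed the threshold (adjusted p = 0.0588), though it passed in 4 of the alternatives. Zeb2 lost its call when mice 2 and 3 were counted as 1 without the arrays against the sex label (adjusted p = 0.0772), and Snai2 with mice 1 and 4 alone (adjusted p = 0.0509).

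Genes of mesenchymal cytoskeleton and surface rose in 7 of 16 and fell in 2. Vim, the intermediate filament of mesenchymal cells, was at 13.18, 13.45, 13.44 and 13.53 against 9.93 to 12.53, without overlap (1.79, SE 0.32). S100a4, a calcium-binding protein known from fibroblasts and motile cells, rose by 2.63 without overlap. Cdh2, which encodes N-cadherin, was at 5.50, 8.31, 8.85 and 4.60 in class 1 mice 1 to 4 and from 2.98 to 5.86 in class 2 (median 4.25, below the array medians). Its rise of 2.50 was largest in mice 2 and 3, the pair of near-identical arrays. The values of mice 1 and 4 lay inside the class 2 range, and these mice alone gave 0.73 (limma, adjusted p = 0.249). The mouse 1 value is the mean of arrays at 7.46 and 3.53, the first of them above the class 2 range. The contractile genes Acta2 and Tagln were not called.

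Matrix genes rose in 5 of 19 and none fell, where 17.0% of all genes rose, and 3 of them rose without the arrays against the sex label. Fn1, which encodes fibronectin, was at 12.72, 13.07, 13.08 and 13.24 against 9.86 to 12.56 (1.76, SE 0.36), with no overlap. Mgp, an inhibitor of calcification in matrix, and Vcan, a matrix proteoglycan, rose by 3.60 and 2.49, although the differences of 8 Vcan probe sets began at 0.05. The fibrillar collagens Col1a1, Col1a2 and Col3a1 were not called. Of the metalloproteinases that cut matrix, Mmp14 and Mmp19 rose by 0.80 and 1.20 and Mmp13 fell by 2.19. Without class 1 mouse 4, Mmp14 (0.59, adjusted p = 0.17) and Mmp19 (0.80, adjusted p = 0.122) were not called, and without all arrays against the sex label no metalloproteinase gene rose. In the TGF-beta pathway, which drives EMT in many cells, no ligand was called, and 6 of 16 genes rose, including the receptors Tgfbr2 (1.14) and Tgfbr3 (1.83) and the latency protein Ltbp1 (2.12). With mice 2 and 3 counted as 1 and no arrays against the sex label, 2 of the 16 genes rose. Ltbp1 was not called in that setting (limma, adjusted p = 0.116). The smallest difference among its 3 probe sets was 0.19.

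Other large rises were in genes of none of these lists. Nr2f1, a nuclear receptor, was at 7.89, 9.23, 9.41 and 8.66 in class 1 and from 2.64 to 6.91 (median 3.78) in class 2. The groups did not overlap (4.80, SE 0.43, limma adjusted p = 4.93e-11). The 2 arrays of mouse 1 were at 6.75 and 9.04 for Nr2f1, the first inside the class 2 range. Mme, the membrane peptidase neprilysin, was at 6.35, 8.51, 8.73 and 7.74 against 2.40 to 7.22, and mouse 1 alone lay within class 2 (4.52, SE 0.51). Its mouse 1 value is the mean of arrays at 4.00 and 8.69. Fgf7, a growth factor that fibroblasts make for keratinocytes, was at 9.86, 9.72, 9.85 and 9.57 against 4.30 to 8.09, again apart (4.09, SE 0.51). The 4 class 1 mice were tighter for Fgf7 than for Mme. Slc9b2, a sodium/proton exchanger, was at 4.00, 9.08, 9.38 and 5.09, with its high values in mice 2 and 3, and Penk, which encodes the enkephalin precursor, was at 7.07, 10.60, 11.04 and 6.60. Penk lost its call with mice 1 and 4 alone (1.28, adjusted p = 0.149). The class 2 medians of Nr2f1, Mme (2.95) and Slc9b2 (3.22) lay below the array medians, so the sizes of these rises are uncertain.

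Among guidance cues and receptors, first described for growing axons, 6 of 14 rose and 2 fell. Sema3a, a secreted semaphorin, was at 9.55, 7.75, 8.04 and 9.15 against 3.87 to 7.43 (3.45, SE 0.34, adjusted p = 5.89e-10), with 0.81 as the smallest difference among 3 probe sets. Its receptor Nrp1 was between 10.28 and 10.44 in class 1 and between 7.89 and 9.68 in class 2 (1.47). Neither overlapped. Ntn1, a netrin, rose by 3.16 and was high in mice 1 and 4 (8.97 and 10.61), while mice 2 and 3 (5.80 and 6.24) lay within class 2 and a second probe set differed by 0.28. Sema3c and Dcc fell by 1.00 and 0.42.

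Growth factor genes of the epidermal growth factor (EGF) family fell in 7 of 9 tested, with none higher and a median of −1.88. Tgfa, a ligand of the EGF receptor, was at 5.91, 4.32, 4.52 and 3.71 against 7.48 to 9.89, without overlap (−4.40, SE 0.33, adjusted p = 4.26e-13), and its 3 probe sets differed by −4.40 to −0.75. The ligand genes Hbegf and Epgn fell by 2.14 and 2.44, and the receptor gene Erbb3 by 3.50 (−0.38 on its other probe set). Egfr itself was not called (−0.01, adjusted p = 0.983). Of 14 genes that report RAS-MAPK signalling, 3 fell and 2 rose: Phlda1 fell by 1.41 and Spry1, an inhibitor of the pathway, rose by 1.98. The share that rose was no higher than the 17.0% of all genes.

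Of 20 mitosis genes, limma called none, with 1 at an unadjusted p under 0.05 and a median of 0.18. Mki67, a marker of cycling cells, differed by 0.27 (adjusted p = 0.465). Cell cycle inhibitors moved apart. Cdkn2a, which encodes the tumour suppressors p16 and p19Arf, was at 3.73, 2.40, 3.60 and 3.25 in class 1 and from 3.14 to 9.12 (median 6.67) in class 2 (−3.33, SE 0.66, adjusted p = 0.000154), with all class 1 levels below the array medians. Its neighbour Cdkn2b, the gene of p15, fell by 3.15, and Ccnd2, a D cyclin, by 2.30 (adjusted p = 0.105 with mice 1 and 4 alone), while the inhibitor gene Cdkn2c rose by 1.20. All 4 class 1 mice lay below the class 2 median of Cdkn2a, with some overlap. In the mouse with both classes the class 1 tumour was higher by 0.28, since its class 2 tumour was low too.

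Hypoxia and glycolysis genes fell in 9 of 16, none rising (median −0.70), among them the glucose transporter gene Slc2a1 (−1.53), the lactate dehydrogenase gene Ldha (−0.66) and Egln3, an oxygen sensor (−2.36). With mice 2 and 3 counted as 1 and no arrays against the sex label, 4 of the 16 fell. Of 14 p53 targets 4 fell, led by Pmaip1 (−2.74). Interferon genes (1 rose and 1 fell of 16) and MHC class I genes (1 rose of 9) were mostly not called. Of 17 genes of IL1-mediated inflammation 2 rose and 2 fell, no more than among all genes (17.0% and 11.1%): Il6, a cytokine, rose by 2.56, and Il24 and Il1a fell by 5.08 and 1.50. Il1a lost its call in 7 alternatives (adjusted p = 0.149 without mouse 1), and Il6 in 2 (0.142 and 0.145). Of 13 hair follicle genes, 3 fell, including Padi3 (−4.14), an enzyme of the hair shaft, and Lgr6 (−2.05), whose adjusted p of 0.0494 stood at the threshold. The class 1 mean of Lgr6 (4.30) was below the array medians. Of 11 sebaceous and lipid synthesis genes, 4 fell and Scd1 rose by 1.49. Scd1 lost its call in 5 alternatives and was at 0.89 without mouse 4 (adjusted p = 0.272).

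Markers of other cell types moved with these differences. All 10 keratinocyte markers fell (median −3.71): their mean level was 9.26, 8.24, 8.48 and 5.04 in class 1 mice 1 to 4, against 10.54 to 12.13 in class 2. The SCC label therefore went with clear keratinocyte transcripts in mice 1 to 3, while in mouse 4, whose array median was 4.482, Trp63 (3.36) lay below that median and Cdh1 (5.02), Krt5 (5.94) and Krt14 (6.22) above it. Macrophage markers rose in 10 of 12 (median 1.65), with mean levels of 9.72, 10.22, 10.19 and 10.10 against 7.02 to 9.76 in class 2, so that mouse 1 alone overlapped. Csf1r, the receptor on which macrophages depend, was at 12.08, 12.62, 12.70 and 12.15 against 8.62 to 11.64, without overlap (1.86, SE 0.32, adjusted p = 2.02e-05). Mast cell markers rose in 6 of 8 (median 1.70), and the tryptase gene Tpsb2 lay apart, at 8.17 to 8.58 in class 1 and 5.51 to 7.94 in class 2.

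Other cell types showed fewer calls. Fibroblast markers rose in 2 of 13 and fell in 2, with a median of 0.31 and mean levels of 9.23 to 10.84 in class 1 and 8.24 to 10.74 in class 2. No marker was called for striated muscle (15 genes, none at an unadjusted p under 0.05), T and NK cells (10 genes, 2 at an unadjusted p under 0.05), MHC class II presenting cells (6 genes, none) or B and plasma cells (4 genes, none). Single markers were called for endothelium (Lyve1, 3.45), melanocytes (Mitf, 1.95), adipocytes (Fabp4, −1.45) and neutrophils (Ltf, −5.07). Endothelial markers had means of 7.79, 6.34, 6.56 and 8.29 in class 1 mice 1 to 4, against 5.71 to 8.01 in class 2. With mice 1 and 4 alone, 6 of 9 endothelial markers rose (median 1.25), and 4 of 12 macrophage markers. The muscle markers had a mean of 9.84 in mouse 1 and 5.54 to 6.92 in the others, within the class 2 range. The part of cell composition in the gene differences was not tested. With mice 2 and 3 counted as 1 and no arrays against the sex label, 6 macrophage, 5 mast cell and all 10 keratinocyte markers were called.

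**Figure D3:**
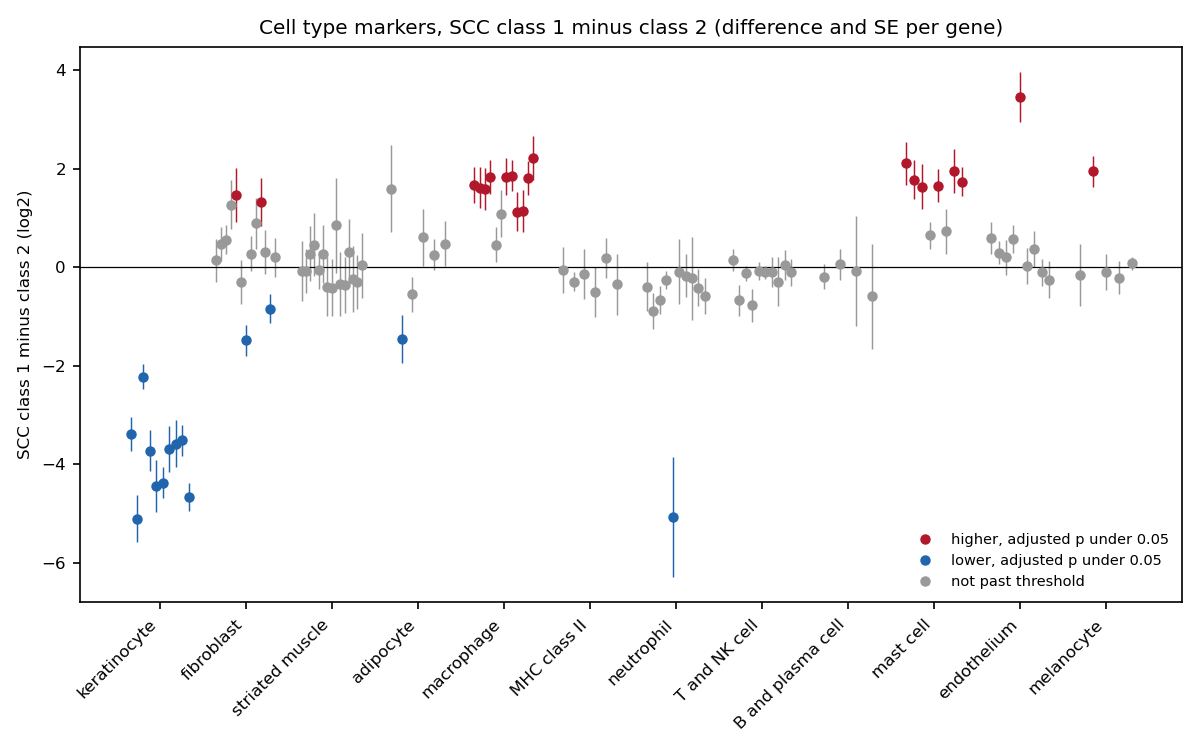
Difference between class 1 and class 2 SCCs (log2) for each marker of 12 cell types, with its standard error (bar); colour gives direction for genes past an adjusted p of 0.05, and grey those not past it. Keratinocyte markers lie between Epcam (−5.10) and Itgb4 (−2.22), macrophage and mast cell markers above 0, and most markers of fibroblasts, muscle and lymphoid cells around 0.

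The mouse labelled with an SCC of each class allows a comparison within 1 host, if both arrays are of that mouse. Its class 1 array was the one nearly identical to that of class 1 mouse 2, and whether those came from 1 tumour or mouse was not tested. Its 2 arrays had a correlation of 0.8757, and 2582 of 13008 genes differed by more than 1 log2 unit, 1339 higher and 1243 lower in the class 1 tumour. Epcam was at 6.19 in the class 1 and 11.84 in the class 2 tumour, Trp63 at 5.60 and 10.03, Vim at 13.44 and 12.28, and Zeb1 at 9.32 and 7.87. Its tumours were near class 1 and class 2 levels respectively for these genes. Some genes called lower in class 1 differed little or the other way in this mouse. Egln3 was at 8.80 in the class 1 and 8.18 in the class 2 tumour, Slc2a1 at 10.49 and 10.72, and Cdkn2b at 4.46 and 5.08. Because the arrays of class 1 mice 2 and 3 are nearly identical, genes were called again from class 1 mice 1 and 4 against class 2 without this mouse. Of the 818 genes lower in class 1 in that fit, 725 (88.6%) were also lower in the array of its class 1 tumour, against 44.7% of all genes. Of the 1276 genes higher, 1023 (80.2%) were higher there, against 55.3% of all genes. This is 1 mouse, its tumours are told apart by the class label of unstated origin, and no test was made.

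Grade did not divide the tumours as the class did. Among well differentiated SCCs, Trp63 was at 7.26 and 3.36 in the 2 class 1 mice and from 9.58 to 10.55 in 11 class 2 mice. In moderately differentiated SCCs the single class 1 mouse was at 5.60 and 13 class 2 mice from 9.20 to 10.42, and among poorly differentiated SCCs the values were 5.39 and 9.64 to 10.63 (8 mice). Every class 1 value lay below class 2 tumours of its own grade. Vim, at 13.18 and 13.53 in the well differentiated class 1 mice, was at 10.51 to 12.27 in class 2 mice of that grade. With grade as a covariate 3625 genes were called, of which 3532 were among the 3648.

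Spindle carcinomas of class 1 were the most similar group. limma called 1 of 13008 genes (0.00769%) between class 1 SCCs and class 1 spindle carcinomas, with 1174 genes at an unadjusted p under 0.05. That gene was Plekhh2, whose protein binds actin, at 3.62 to 4.24 in class 1 SCCs and 4.43 to 6.42 in class 1 spindle carcinomas (−1.43, SE 0.25, adjusted p = 0.00621). Its levels in class 1 SCCs were below the array medians, and it lost its call in 3 of 10 alternatives. With 4 mice against 9, the low count does not show that the groups are alike. Levels of Cdh1 (means 6.49 and 6.74) and Trp63 (5.40 and 5.09) in the SCCs and the spindle carcinomas differed by less than 1 SD. Those of Vim (13.40 and 13.59) differed by slightly more than the SDs of 0.15 and 0.14, and were not called. The comparisons with spindle carcinomas use the same 4 class 1 mice as those above. None of these 4 mice had the mutant p53 label, while some mice of each spindle class had it. The comparisons were not adjusted for this label, and its part in them was not tested. Against class 2 spindle carcinomas, 1764 genes were called (13.6%), 923 of them higher and 841 lower in class 1 SCCs. The 5 largest falls were Ltf, Epcam, Gsta4, Cwh43 and Ehf (−6.48 to −5.51), and the largest rises Mme, Fgf7, Nr2f1, Ckb and Slc9b2 (3.36 to 4.66). The lower group mean was below the array medians for Cwh43 (3.65), Ehf (3.57), Mme (3.17) and Slc9b2 (3.52), so these sizes are uncertain. Keratinocyte markers had a mean of 11.13 to 11.98 in class 2 spindle carcinomas, within the range of class 2 SCCs, and of 5.86 to 9.88 in those of class 1.

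The class difference in SCCs was set against that in spindle carcinomas, which come from other mice but are divided by the same class label. If that label was drawn from these expression values, shared signs are no independent evidence. Of the 3648 genes called in SCCs, 3325 (91.1%) had the same sign in spindle carcinomas, against 60.4% of the genes not called. Epcam differed by −5.10 in SCCs and −4.93 in spindle carcinomas, and Trp63 by −4.66 and −4.97. A test of the difference between the 2 class effects called 9 genes (0.0692%), 6 with a positive and 3 with a negative difference, and 1545 at an unadjusted p under 0.05. Gon4l, a nuclear protein gene, had the smallest p: it averaged 7.61 and 6.93 in class 1 and class 2 SCCs and 6.93 and 7.50 in class 1 and class 2 spindle carcinomas (difference of differences 1.26, SE 0.21, adjusted p = 0.00207). Slc4a4, a bicarbonate transporter, averaged 6.00 and 4.60 in SCCs and 4.84 and 5.10 in spindle carcinomas (1.67, SE 0.33, adjusted p = 0.0208). Slc4a4 lost its call without mouse 2 (adjusted p = 0.117), without mouse 3 (0.182) and with the 2 counted as 1 (0.161), and Gon4l when arrays against the sex label were also left out (0.283). Penk and Lyve1 were higher in class 1 SCCs and differed by −0.29 and −0.02 in spindle carcinomas, but the differences between the histologies (3.57 and 3.47) did not pass (adjusted p = 0.0751 and 0.0994).

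**Figure D4:**
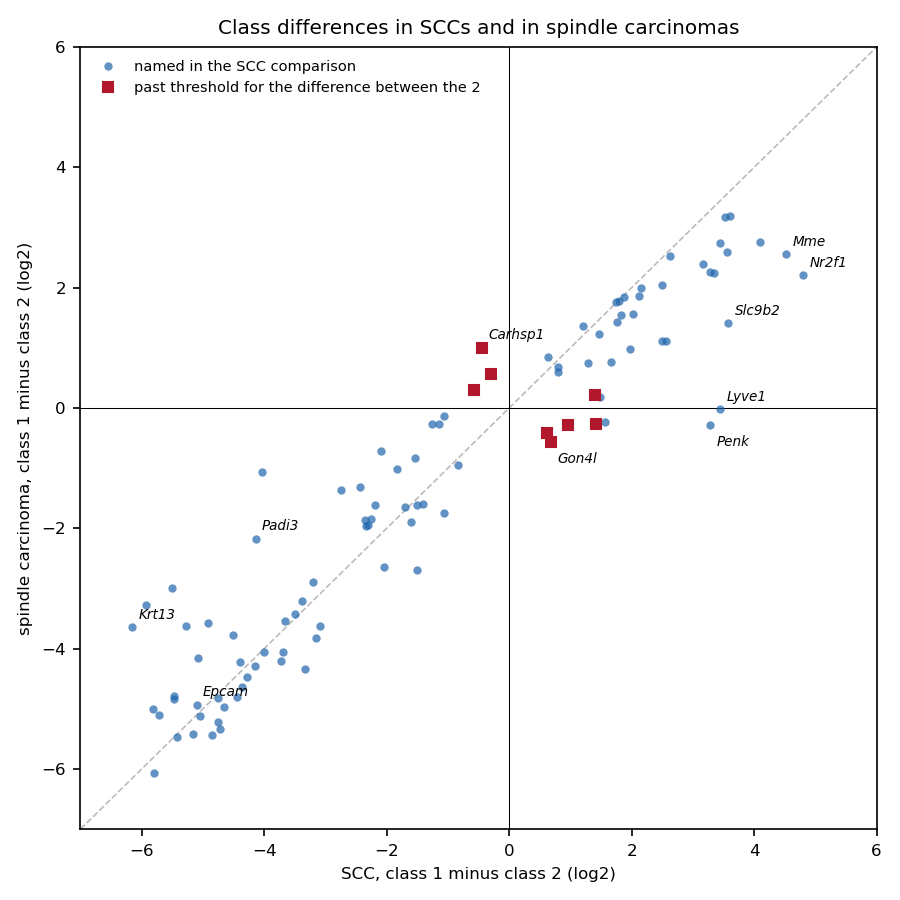
Class 1 minus class 2 difference (log2) in SCCs (horizontal) and in spindle carcinomas (vertical) for the 94 genes named in the SCC comparison (circles) and 8 of the 9 genes whose class difference was itself different between histologies (squares); the dashed line marks equal differences. Of the 94 genes, chosen for their difference in SCCs or fixed as known markers, 91 have the same sign in both. The same class label divides both histologies.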

How the data were processed

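Log2 expression values per probe set were deposited by the authors after RMA, which subtracts background, forces the arrays to a common distribution and combines the probes of a set. An overall shift of most genes would be removed. The RMA version and a genome build are not given in the sources used here. Of 45101 probe sets, 34958 had a single gene symbol, 932 several and 9211 none in the platform annotation; 34754 were matched to RefSeq names (GRCm38.p6). For each gene the probe set with the highest mean over 60 arrays was taken (18194 genes), and 13008 genes above the array median on at least 5 of the 52 SCC and spindle arrays were kept. Array medians lay between 4.431 and 4.558; the number of arrays limits the precision.

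Mice were compared with limma 3.58.1 (lmFit, eBayes) in R 4.3.3 with Benjamini-Hochberg adjustment over all genes. The study's methods name SAM, which was not run. The 4 groups shared 1 fit for comparisons with spindle carcinomas. The fit was tested on simulated data. Labels were compared with Fisher's exact and exact permutation tests (scipy, Python 3.11.15), adjusted over 7 labels. Figures were drawn with matplotlib 3.10.9.

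The members, the 25 gene lists and the 12 marker lists were chosen with earlier results of these data known. Named genes are the 12 largest differences each way, up to 3 called members per list and 18 marker genes; for the other contrasts the 5 largest each way. Genes named outside this rule (such as Krt1, Krt10, Mki67, Egfr, Csf1r and other list members) illustrate their lists and were chosen after their values were seen. Alternatives were other filters, normalisations, probe set rules, covariates and subsets of mice; 3 of them (mice 2 and 3 counted as 1, the same without arrays against the sex label, and class 1 mice 1 and 4 alone) were added after the data were seen, as was leaving out mice in the label and RNA quality tests.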

Additional observations from a re-analysis of the deposited data

Results flagged for a closer look

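In 6 of 94 named genes, 1 of the 4 class 1 mice lay far from the other 3 relative to their range; chance alone marks about 1 group in 20. Mouse 4 was lowest for Cnfn (4.17), Sprr1b (2.66) and Krt8 (10.98). Mouse 1 was lowest for Lyve1 (8.67) and highest for Mmp13 (10.04) and S100a3 (6.37). Its S100a3 value is the mean of arrays at 3.74 and 9.00, so only 1 of them was high.

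The class difference itself differed between SCCs and spindle carcinomas in the limma interaction test for Gon4l (1.26), Slc4a4 (1.67), Gga3 (1.04), Carhsp1 (−1.44), Slc4a2 (1.25), Rhobtb1 (1.19), Nubp1 (−0.87) and Ufd1 (−0.87). For Gon4l, Gga3, Slc4a2 and Slc4a4 the difference was positive in SCCs and negative in spindle carcinomas, and for Carhsp1, Nubp1 and Ufd1 it was the reverse. The probe sets of Nubp1, Ufd1 and Slc4a4 did not all run the same way in SCCs (for Ufd1 from −0.57 to 0.29). With class 1 mice 2 and 3 counted as 1, limma called 2 genes in this test in place of 9.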

How the results depend on the processing

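The class difference in SCCs kept its direction for all 94 named genes in the alternatives that tested them (26 in all), and its side of the threshold in 2341 of the gene and alternative combinations; 94 calls were lost and 4 gained. The count of 3648 genes stayed between 2724 and 3991 in 23 alternatives, with 2724 to 3268 when a class 1 mouse was left out. It moved to 5768 of 22795 features with every probe set tested. With class 1 mice 1 and 4 alone it was 2094. With mice 2 and 3 counted as 1 and no arrays against the sex label it was 1530. These last 2 settings use fewer mice and drop or merge the near-identical arrays, and why the count fell was not tested. Lgr6 lost its call in 21 alternatives.

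The comparisons with spindle carcinomas rested on few calls. The 9 genes of the interaction became 24 with every tumour kept, 2 with mice 2 and 3 counted as 1, and 0 when arrays against the sex label were also left out (685 at an unadjusted p under 0.05 in limma); leaving out a class 1 mouse gave 1 (without mouse 3) to 27 (without mouse 1). The single gene between class 1 SCCs and class 1 spindle carcinomas became 5 with no filter, 8 with every tumour kept and 0 with mice 2 and 3 counted as 1 (820 at an unadjusted p under 0.05); leaving out a mouse gave 0 to 26, the highest again without mouse 1. Against class 2 spindle carcinomas, 1764 calls became 448 with mice 2 and 3 counted as 1 and no arrays against the sex label. The causes were not tested. None of the tests of labels or RNA quality passed when a class 1 mouse was left out. No paired analysis was possible because mouse numbers are only names and a single mouse had an SCC of each class; the fit with mouse as a random effect keeps both of its tumours but compares no pairs. The 4 mice of class 1 limit all comparisons.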
